A study of Mus musculus and Bos taurus with 6 samples.

Results

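miR-26a and miR-26b are vertebrate microRNA (miRNA) that share a seed, the stretch near the 5′ end of a miRNA that pairs with its target messenger RNA. All rows named miR-26a, miR-26b or miR-26c under the mouse or bovine prefix were taken from the quantification of small RNA sequencing in lactating mammary tissue, whatever their values. In mouse these were mmu-miR-26a-5p, mmu-miR-26b-5p, mmu-miR-26a-1-3p, mmu-miR-26a-2-3p and mmu-miR-26b-3p, so 5 of the 1750 listed rows. In bovine they were bta-miR-26a and bta-miR-26b, so 2 of the 1539 listed rows, and the whole set was 7 of 3289 rows. No row was named miR-26c.

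Each of the 3 groups held 2 libraries, which had been made to compare the miRNA of the lactating gland between species and to find those bound to Argonaute-2 (AGO2) in mouse. The mouse libraries were total RNA from abdominal glands of primiparous FVB/N mice on day 12 of lactation, with the lymph node removed. The AGO2 libraries came from the same strain, gland and day after co-immunoprecipitation with an anti-AGO2 monoclonal antibody (Abnova). The bovine libraries were total RNA from udder biopsies of multiparous Holstein cows at mid-lactation, each pooled from 2 cows, on a low forage, hay-based diet with a forage to concentrate ratio of about 46:54. The mouse and AGO2 libraries were drawn from 2 mice in all, and the sources used here do not say which mouse gave which library. No immunoprecipitation with a control antibody was analysed here. The labels tie no AGO2 library to a mouse library, so the numbers 1 and 2 of the samples follow the order of the records and the tests were not paired.

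A miRNA is cut from a hairpin precursor with a 5p and a 3p arm. One arm, the guide strand, is usually kept by an Argonaute protein, which then represses messengers that pair with the seed, whereas the other arm, the passenger strand, is mostly degraded. In the miR-26 family the 5p arm is the guide. miR-26a is known to repress EZH2, a histone methyltransferase, and in goat mammary epithelial cells miR-26 and its host genes have been linked to triacylglycerol synthesis. The host genes Ctdsp1, Ctdsp2 and Ctdspl encode small phosphatases that act on the C-terminal domain of RNA polymerase II.

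The guide strands are shown because counts of miR-26a-5p and miR-26b-5p can be told apart only where their sequences differ. Sequences run 5′ to 3′ as the deposited files give them, and capitals mark the seed, bases 2 to 8.
mmu-miR-26a-5p: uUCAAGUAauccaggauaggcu
mmu-miR-26b-5p: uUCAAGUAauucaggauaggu
bta-miR-26a: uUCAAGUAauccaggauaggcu
bta-miR-26b: uUCAAGUAauucaggauagguu
All 4 guide strands carried the same seed. Counting positions from 1 at the 5′ end and giving the miR-26a base first, miR-26a-5p differed from mmu-miR-26b-5p by C11U and C21U, so that 1 base differed within the first 20. miR-26a was identical in mouse and bovine, and bovine miR-26b was listed 1 base longer than mouse miR-26b, at 22 against 21 nt. How many mismatches the counting tolerated is not given in the sources used here.

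The 3p arms are shown because they alone separate the miR-26a genes, whose 5p arm is the same. Capitals mark bases 2 to 8, and the last pair are the human-named rows under which the 3p arms were listed in the bovine libraries.
mmu-miR-26a-1-3p: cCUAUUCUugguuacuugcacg
mmu-miR-26a-2-3p: cCUGUUCUugauuacuuguuuc
mmu-miR-26b-3p: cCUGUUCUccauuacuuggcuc
hsa-miR-26a-2-3p: cCUAUUCUugauuacuuguuuc
hsa-miR-26b-3p: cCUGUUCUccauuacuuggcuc
Bases 2 to 8 were the same in mmu-miR-26a-2-3p and mmu-miR-26b-3p and differed in mmu-miR-26a-1-3p. mmu-miR-26a-2-3p differed from the human-named row by G4A, and the miR-26b-3p sequences were identical.

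In the mouse genome the family is encoded by 3 hairpins, shown from RefSeq (GRCm38) with the 5p and 3p arms in capitals. The deposited sequences of all 5 mouse members were the same as in RefSeq.
Mir26a-1, chr9:119031796-119031885, + strand: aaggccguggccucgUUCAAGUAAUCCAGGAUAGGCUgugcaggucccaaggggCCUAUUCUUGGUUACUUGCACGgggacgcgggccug
Mir26a-2, chr10:126995530-126995613, + strand: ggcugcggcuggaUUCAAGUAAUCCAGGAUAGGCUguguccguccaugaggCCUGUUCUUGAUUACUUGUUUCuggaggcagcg
Mir26b, chr1:74394310-74394394, + strand: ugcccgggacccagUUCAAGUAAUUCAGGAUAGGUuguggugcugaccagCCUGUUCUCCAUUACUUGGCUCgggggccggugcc
Each hairpin lay on the same strand as its host gene and within an intron. Mir26a-1 was in intron 5 of Ctdspl (chr9:119030253-119033535), Mir26a-2 in intron 5 of Ctdsp2 (chr10:126993909-126995854) and Mir26b in intron 4 of Ctdsp1 (chr1:74394076-74394639). For Mir26a-2 this held in 1 of the 2 coding transcripts that span it.

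Library totals over all listed miRNA ranged from 3909166 counts in AGO2 sample 1 to 10613807 in bovine sample 2. Levels are given as RPM, counts per 1000000 of that total. Epithelial markers (miR-205-5p, miR-141-3p, miR-200c-3p, miR-200b-3p and miR-200a-3p) were detected in every group, at summed levels of 155444 and 181734 RPM in mouse, 334535 and 365137 RPM in AGO2, and 76764 and 78565 RPM in bovine. The members of this list went in both directions: in AGO2 over mouse miR-200a-3p (log2 fold change 1.58) and miR-141-3p (1.34) were called higher, and miR-200b-3p (-1.43) and miR-200c-3p (-1.71) lower, by edgeR. In bovine over mouse miR-200a-3p and miR-200b-3p (log2 fold change of the latter -1.18) were called lower and miR-205-5p (2.33) higher. In the AGO2 libraries 1 miRNA, miR-200a-3p, took 26.8% and 25.6% of all counts, and the RPM of every other miRNA there is a share of a total that includes it. miR-126a-3p, the marker used for endothelial cells, had the same order of groups as the miR-26 guide strands, at 16270 and 20468 RPM in mouse, 6776 and 6711 RPM in AGO2, and 38701 and 30592 RPM in bovine. The other arm of its hairpin, miR-126a-5p, looked up after the values were seen, went the other way in AGO2 over mouse (log2 fold change 1.18, adjusted p = 0.0422, edgeR). The stromal and contractile markers (4 of 4 detected) summed to 54217 and 70847 RPM in mouse, 36639 and 34223 RPM in AGO2, and 77751 and 63436 RPM in bovine. Erythroid markers (3 of 3 detected) went the other way as a sum. They had 6504 to 13343 RPM in mouse, 15527 to 32468 RPM in AGO2 and 1098 to 1709 RPM in bovine. Of the 3, only miR-144-3p kept this order in every library. miR-451a in AGO2 sample 2 (9837 RPM) lay below mouse sample 1 (11706 RPM). miR-486-5p in bovine (255 and 230 RPM) lay between its mouse values (533 and 71.4 RPM). Leukocyte markers (4 of 4) lay between 893 and 2637 RPM over the 6 libraries. In bovine over mouse miR-150-5p and miR-155-5p were called higher, miR-223-3p lower and miR-142-3p not called, by edgeR. Muscle markers had the same order of groups as the miR-26 guide strands. They summed to 163 and 213 RPM in mouse, 27.9 and 70.2 RPM in AGO2, and 727 and 782 RPM in bovine. In mouse and bovine most of this was miR-1. By contrast, miR-133a-3p was at 3.33 and 5.60 RPM in mouse and higher in AGO2, at 16.4 and 35.3 RPM. The count of miR-206-3p, specific to skeletal muscle, was 0 in mouse sample 2. The part of these cell types in the miR-26 levels was not tested, and in bulk tissue a change in the number of cells of a type cannot be told apart from a change in RNA per cell.

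Both guide strands were abundant in every library, and miR-26a-5p was above miR-26b-5p in all 6. miR-26a-5p had 227124 and 229626 counts in mouse, 68697 and 65605 in AGO2, and 629427 and 766252 in bovine. This was 24422 and 27363 RPM in mouse, with a mean of 25893 RPM ± 2079 (SD, n = 2). In AGO2 it was 17573 and 13013 RPM, with a mean of 15293 RPM ± 3224 (SD, n = 2). In bovine it was 66943 and 72194 RPM, with a mean of 69568 RPM ± 3713 (SD, n = 2). By mean, bovine was the highest of the 3 groups and AGO2 the lowest. Among all listed miRNA, miR-26a-5p ranked 12th and 9th in mouse, 11th and 12th in AGO2, and 2nd and 3rd in bovine.

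miR-26b-5p followed the same order of groups at a lower level. It had 59712 and 75400 counts in mouse, 13602 and 14023 in AGO2, and 205528 and 241149 in bovine. The levels were 6421 and 8985 RPM in mouse (mean 7703 ± 1813, SD, n = 2), 3480 and 2782 RPM in AGO2 (mean 3131 ± 494, SD, n = 2), and 21859 and 22720 RPM in bovine (mean 22290 ± 609, SD, n = 2). Here too bovine had the highest mean and AGO2 the lowest. It ranked 32nd and 26th in mouse, 41st and 37th in AGO2, and 14th and 12th in bovine.

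**Figure D1:**
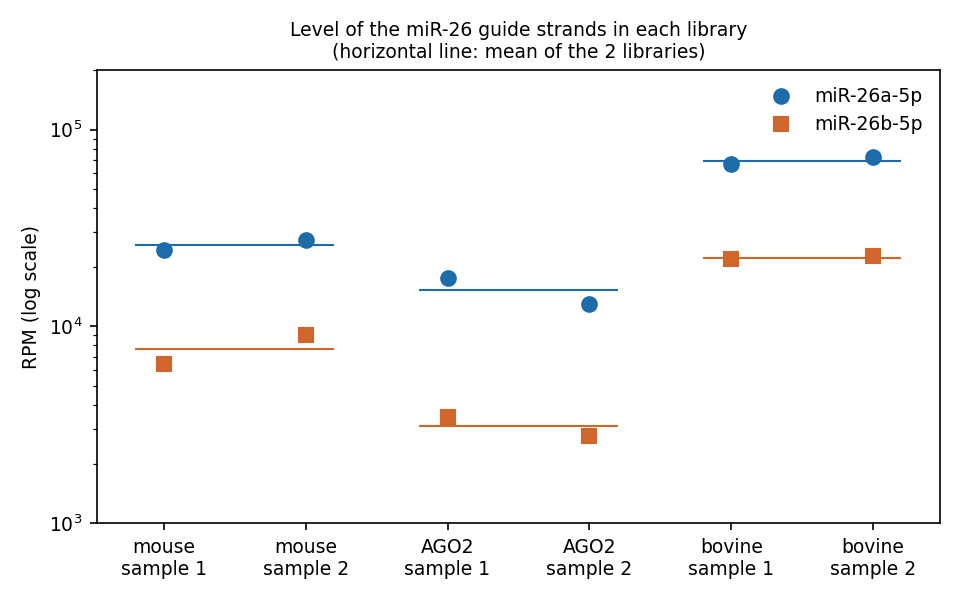
Level of miR-26a-5p and miR-26b-5p in RPM (log scale) in each of the 6 libraries, with a horizontal line at the mean of the 2 libraries of a group. For both guide strands the bovine points lie above the mouse points and the AGO2 points below them, and miR-26b-5p lies below miR-26a-5p in every library.

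Replicate libraries differed less for the guide strands than for the median abundant miRNA. Among miRNA with at least 100 RPM in a library of the group, the gap between the 2 mouse samples was 0.16 on the log2 scale for miR-26a-5p and 0.48 for miR-26b-5p, beside a median of 0.57 over 171 miRNA. In AGO2 the gaps were 0.43 and 0.32, beside a median of 0.62 over 167 miRNA. In bovine they were 0.11 and 0.06, beside a median of 0.18 over 172 miRNA. Bovine libraries were pools of cows and mouse libraries were not, so these gaps do not compare animals alike.

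Summed over all rows with the miR-26 seed, the family took 3.08% and 3.63% of the mouse libraries (mean 3.36% ± 0.389, SD, n = 2). It took 2.11% and 1.58% of the AGO2 libraries (mean 1.84% ± 0.372, SD, n = 2) and 8.88% and 9.49% of the bovine libraries (mean 9.19% ± 0.432, SD, n = 2). When all miRNA were grouped by bases 2 to 8, this seed ranked 10th and 8th in mouse, 13th and 11th in AGO2, and 2nd in both bovine libraries. The guide strands made up nearly all of these counts. The only other row with the seed was a predicted bovine miRNA, bta-19_15181, with 7 and 13 counts in the bovine libraries.
bta-19_15181: uUCAAGUAauaaaggauagg
Its predicted precursor lay at chr19:1547511-1547560 on the minus strand of UMD3.1, with a deposited miRDeep2 score of 1.9. Against miR-26a-5p it differed by C11A and C12A over its 20 bases.

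The ratio of miR-26a-5p to miR-26b-5p within a library needs no scaling between libraries. It was 3.80 and 3.05 in mouse (mean 3.42 ± 0.536, SD, n = 2), 5.05 and 4.68 in AGO2 (mean 4.86 ± 0.263, SD, n = 2), and 3.06 and 3.18 in bovine (mean 3.12 ± 0.0813, SD, n = 2). Both bovine values lay within the mouse range, and the difference in mean log2 ratio was -0.13 (exact permutation test, two-sided, p = 1, n = 2 per group). Both AGO2 values lay above both mouse values, by 0.51 in mean log2 ratio or 1.43-fold. For 2 libraries against 2 the exact permutation test cannot go below p = 0.333, which is the two-sided value it gave for AGO2, so that the design could not bring this difference past the threshold. As a share of the counts of both guide strands, miR-26a-5p made up 79.2% and 75.3% in mouse, 83.5% and 82.4% in AGO2, and 75.4% and 76.1% in bovine.

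The comparison of species asked how the bovine gland differs from the mouse gland in miRNA that both species share. Both miR-26 guide strands were higher in bovine. For miR-26a-5p the fitted log2 fold change was 1.28 (SE 0.26), or 2.43-fold, with an adjusted p of 0.00962 (quasi-likelihood test of edgeR, Benjamini-Hochberg correction over the 139 matched miRNA tested). For miR-26b-5p it was 1.38 (SE 0.31), or 2.61-fold, with an adjusted p of 0.0120 in the same test. Of the 139 miRNA, 41 were called higher and 36 lower in bovine, so that 29.5% were called higher, and the 2 members tested were both among them. Of the 41 called higher, 39 lay further out than miR-26a-5p, miR-26b-5p included, and 37 lay further out than miR-26b-5p, so that both guide strands were among the smallest of these called changes.

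Leaving out 1 library at a time kept the direction of both guide strands. Without bovine sample 1 miR-26a-5p was at 1.37 and miR-26b-5p at 1.45 on the log2 scale. Without bovine sample 2 the values were 1.00 and 1.13. Without mouse sample 1 they were 1.07 and 1.03, and without mouse sample 2 they were 1.34 and 1.62. With 1 library left in a group the spread comes from the other group alone, so calls from these fits depend on which pair remains. The median of all 139 miRNA was 0.21 and moved from 0.03 to 0.50 with the scaling between libraries, and relative to that median the members were at 1.07 and 1.17. Species, breed, parity, RNA isolation kit, pooling of animals and biopsy against whole gland all changed together between these groups and cannot be told apart. The same holds for diet, which is given for the cows only.

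The comparison of AGO2 with mouse asked which miRNA of the gland are found with the protein. The fitted values of both guide strands were below 0, and neither passed the threshold. For miR-26a-5p the log2 ratio of AGO2 to mouse was -0.62 (SE 0.38), with an adjusted p of 0.223 (quasi-likelihood test of edgeR, Benjamini-Hochberg correction over the 299 miRNA tested). For miR-26b-5p it was -1.16 (SE 0.49), with an unadjusted p of 0.0277 and an adjusted p of 0.0773. After scaling by TMM factors the groups did not overlap for either guide strand. How many of the 299 tested miRNA were separated in this way was not counted, so this is no evidence of a difference. Only these 2 of the 5 mouse members passed the filter on low counts, and 0 of the 2 were called. miR-26b-5p had an unadjusted p under 0.05 in both edgeR and DESeq2. That is common here, where edgeR called 83 of the 299 miRNA and DESeq2 117 even after adjustment. DESeq2 called 0 of 2 as well, with adjusted p of 0.374 and 0.0687.

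Of the 299 miRNA, 46 were called higher and 37 lower in AGO2, so that 12.4% were called lower. All 37 lay further out than both guide strands. In total 125 miRNA lay below miR-26a-5p and 89 below miR-26b-5p. The median of all tested miRNA was -0.12 with the scaling used here and between -0.26 and -0.01 with the other scalings. Relative to that median the guide strands were at -0.50 and -1.04. Both comparisons share the same 2 mouse libraries, and their values are therefore given side by side only.

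**Figure D2:**
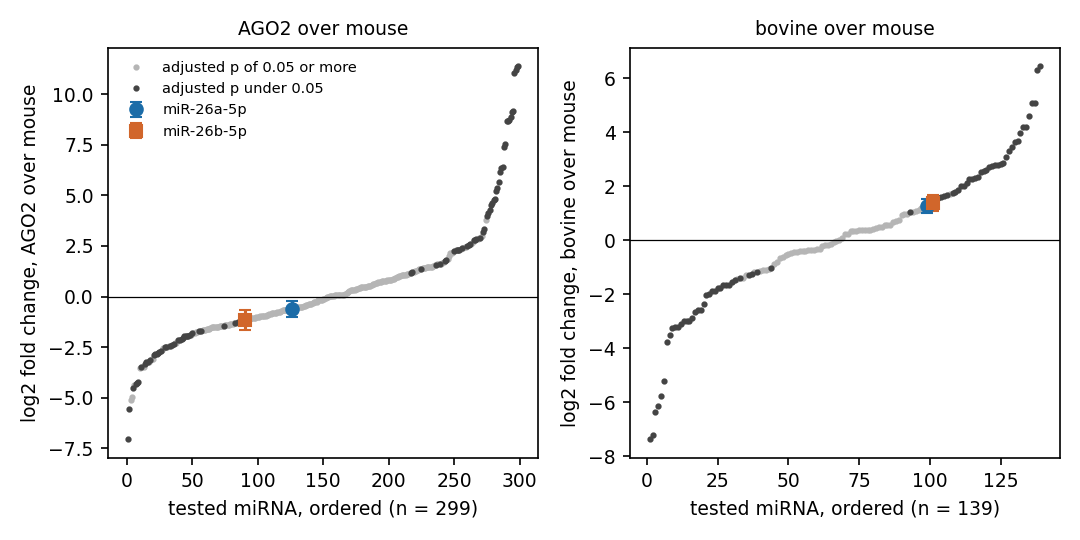
Log2 fold change of every tested miRNA, ordered by value, for AGO2 over mouse (299 miRNA) and bovine over mouse (139 miRNA), with miR-26a-5p and miR-26b-5p marked. Bars are approximate standard errors derived from the F statistic of the test. The members lie at -0.62 and -1.16 in the AGO2 comparison and at 1.28 and 1.38 in the bovine comparison.

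The 3p arms were close to the limit of detection. In mouse samples 1 and 2, miR-26a-1-3p had 7 and 6 counts (0.753 and 0.715 RPM), miR-26a-2-3p 12 and 14 counts (1.29 and 1.67 RPM), and miR-26b-3p 8 and 7 counts (0.860 and 0.834 RPM). All 3 passenger strands were thus seen in both mouse libraries at a like level. A count of 0 allowed up to 3 counts, or 0.283 to 0.767 RPM over the 6 libraries, and these limits and the intervals below cover counting error only.

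In the AGO2 libraries the passenger strands were less regular. miR-26a-1-3p had 0 and 1 counts, miR-26a-2-3p had 1 and 17 counts, and miR-26b-3p had 0 in both. For miR-26b-3p the summed mouse libraries, at 0.848 RPM, were at 2.53 times the floor of 3 counts over both AGO2 libraries, 0.335 RPM. This ratio leaves out the counting error of the 15 mouse counts. For miR-26a-1-3p, 13 counts in mouse against 1 in AGO2 gave a ratio of 6.58 in RPM (exact 95% interval 0.988 to 279.5). For miR-26a-2-3p, 26 counts against 18 gave 0.731 (0.386 to 1.41). The 18 counts rested on AGO2 sample 2, where the level was 3.37 RPM (exact interval 1.96 to 5.40), above the 0.256 RPM (0.00648 to 1.43) of AGO2 sample 1. None of the 3 passed the filter on low counts, and no test between groups was made.

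The bovine files held no 3p row under the bovine prefix. The human-named rows, which are not among the members, had 17 and 20 counts for miR-26a-2-3p (1.81 and 1.88 RPM) and 7 and 9 counts for miR-26b-3p (0.744 and 0.848 RPM). Over the mean of the mouse libraries these were 1.25-fold and 0.940-fold, beside 2.69-fold and 2.89-fold in RPM for miR-26a-5p and miR-26b-5p. The human-named sequence of miR-26a-2-3p is not that of the mouse, so the counts of this arm are not a strict match.

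**Figure D3:**
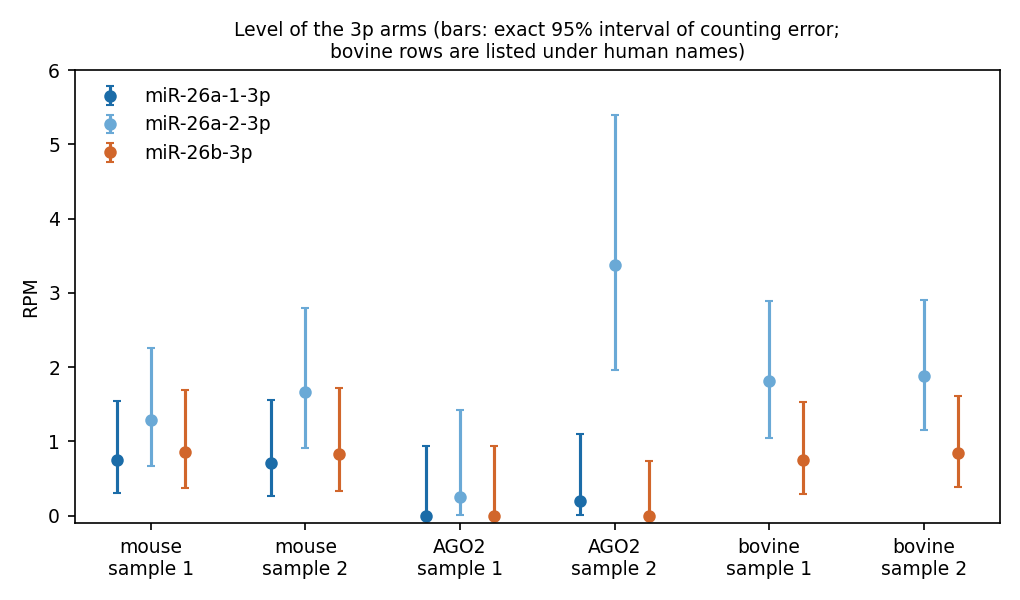
Level of the 3p arms in RPM in each library, with the exact 95% interval of counting error as bars. The bovine values belong to human-named rows, and the highest point is miR-26a-2-3p in AGO2 sample 2, at 3.37 RPM.

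As a share of all miR-26 counts, the 3p arms made up 9.41 and 8.85 per 100000 in mouse (exact Clopper-Pearson 95% intervals 6.20 to 13.7 and 5.83 to 12.9). In AGO2 they made up 1.22 (0.0308 to 6.77) and 22.6 (13.4 to 35.7) per 100000. The AGO2 samples lay on either side of the mouse samples, and their intervals did not overlap. For the 2 arms that also had a row in bovine, miR-26a-2-3p and miR-26b-3p, the share was 6.97 (4.26 to 10.8) and 6.88 (4.26 to 10.5) per 100000 in mouse, and 2.87 (1.84 to 4.28) and 2.88 (1.93 to 4.13) in bovine.

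Compared with other precursors, the miR-26 hairpins were strongly asymmetric. Among the 89 mouse precursors with both arms listed and at least 10000 counts in the summed libraries, the minor arm made up a median of 0.395% of counts. It made up 0.00285% for mir-26a-1, the 7th lowest, and 0.0111% for mir-26b, the 14th lowest. For mir-26a-2, whose 5p row is listed under mir-26a-1, it was 0.00569% of the shared 5p count and its own 3p count, which would place 12th. In AGO2 the median was 0.639% over 60 precursors. There mir-26a-1 was at 0.000745%, mir-26b at 0 and mir-26a-2 at 0.0134%, so that mir-26a-2 was above its mouse value and the others below theirs, with nearly all of its 3p counts from AGO2 sample 2. In bovine, with the human-named 3p rows, mir-26a-2 had 0.00265% and mir-26b 0.00358%, the 11th and 13th lowest of 84, beside a median of 0.278%. The bovine mir-26a-2 is therefore to be read beside mouse mir-26a-2, not mir-26a-1. The 5p reads of miR-26a can come from both of its genes and cannot be assigned to one of them. The minor-arm shares of mouse mir-26a-1 and mir-26a-2 are therefore lower bounds, in AGO2 as well, and their true places could be higher.

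By profile over the 6 libraries, the miRNA nearest to miR-26a-5p was miR-26b-5p. Distance was taken between log2(RPM + 1) values, each centred on its own mean, over 145 other miRNA present in both species. It was 0.720 for miR-26b-5p, 0.766 for miR-25-3p, 0.775 for miR-128-3p, 1.13 for miR-497-5p and 1.17 for miR-361-5p. The 6 points fall in 3 groups of 2 libraries, and a shared depth or composition of a library enters every profile. In the bovine comparison, miR-25-3p (log2 fold change 1.05, adjusted p = 0.0212, edgeR) and miR-361-5p (1.50, adjusted p = 0.0124, edgeR) were called higher. The neighbours were chosen by their values in these same libraries, so their direction here was largely set by that choice. miR-128-3p (0.76, adjusted p = 0.117) and miR-497-5p (0.33, adjusted p = 0.350) were not called.

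**Figure D4:**
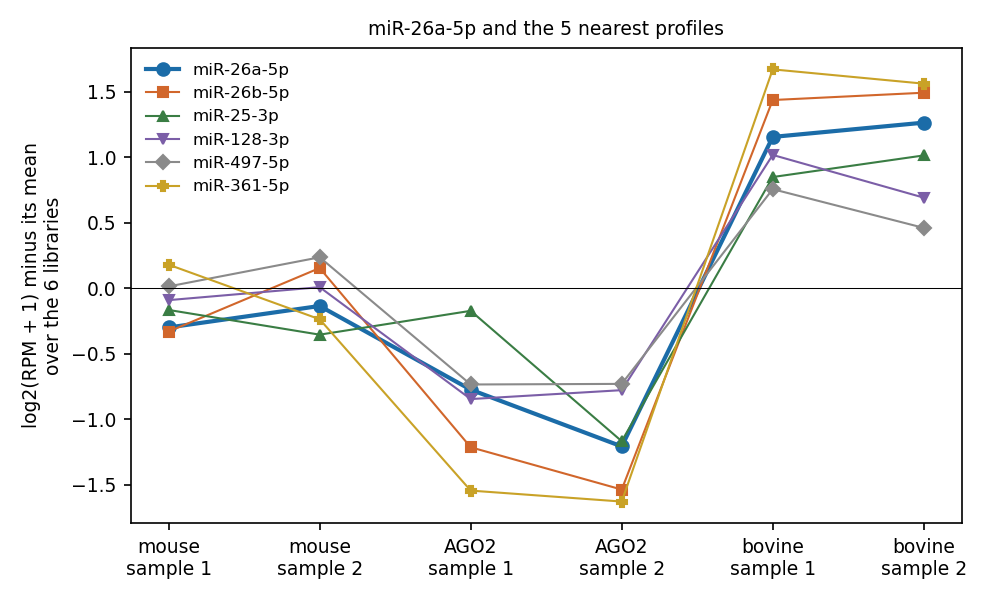
Centred log2(RPM + 1) of miR-26a-5p and its 5 nearest profiles over the 6 libraries, with lines joining the values of a miRNA for reading only. miR-26b-5p, at a distance of 0.720, runs closest to miR-26a-5p.

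Other miRNA known to repress EZH2, the methyltransferase targeted by miR-26a, were set beside the guide strands. In AGO2 over mouse all 10 of the list were tested, with 0 called higher and 5 lower, beside 12.4% called lower over all 299 miRNA. Their median log2 fold change was -1.93 beside -0.12 over all. The 5 were miR-98-5p (-2.90, adjusted p = 0.00336), let-7c-5p (-2.52, adjusted p = 0.00141), let-7a-5p (-2.37, adjusted p = 0.00141), let-7e-5p (-2.03, adjusted p = 0.0410) and let-7b-5p (-1.82, adjusted p = 0.0318). All 5 belong to the let-7 family, which shares 1 seed and is known for repressing growth regulators such as LIN28 and RAS. None of the 5 members outside let-7 was called. miR-138-5p was at -2.43, miR-124-3p at -1.71, miR-214-3p at -1.34, miR-101b-3p at -0.49 and miR-101a-3p at 0.54, with adjusted p from 0.186 to 0.478. In bovine over mouse 6 of the 10 were tested, with 2 called higher, let-7a-5p (1.80, adjusted p = 0.0130) and let-7b-5p (2.00, adjusted p = 0.0396), and 0 lower. This share is close to the 29.5% called higher over all 139 miRNA. The other 4 were not called and lay between -1.12 (let-7c-5p) and 1.06 (miR-214-3p). The median of the 6 was 1.02 beside 0.21 over all 139.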

How the data were processed

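Small RNA from 2 mouse, 2 AGO2 and 2 bovine libraries had been sequenced on an Illumina HiSeq. The values used were the deposited read counts per mature miRNA, which the authors made with miRDeep2 from poly-A-trimmed reads of 17 to 28 nt, GRCm38 or UMD3.1, and miRBase 20. The normalised column deposited beside the counts was not used. The deposited miRDeep2 score was read for 1 predicted bovine precursor, and the mouse prediction list was not used here. All columns of counts were mapped to a sample. Replicates are separate libraries, and p-values measure the spread between them. The paper gives 2 animals for the 2 AGO2 libraries, and each bovine library was a pool of 2 cows. The mouse and AGO2 libraries came from 2 mice in all, so these groups can share animals. The unpaired test treats their libraries as independent.

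RPM (counts per 1000000) was computed over each library's total count. AGO2 with mouse was tested on miRNA passing the count filter of the study's methods in at least 1 of 4 libraries (299 tested). Bovine with mouse was tested on miRNA matched by name and arm that reached 100 RPM in 1 or more libraries (139 tested). The test was edgeR 4.0.16 (quasi-likelihood, TMM factors, Benjamini-Hochberg adjustment, threshold 0.05) in R 4.3.3, and the script was tested on simulated data. The SE beside an edgeR value was derived from its log2 fold change and the F statistic of the test, and is approximate. DESeq2 1.42.0, other scalings, filters, matchings and each library left out were alternatives. Intervals are exact Clopper-Pearson at 95%, from SciPy 1.17.1. For profiles a pseudocount of 1 RPM was added. Intron positions come from GENCODE on GRCm38. Every miR-26 row was named whatever its value, with all rows that share the seed and the 5 nearest profiles. The members, gene lists and tests were chosen with earlier results of these data known. A further list of miRNA fixed in the design is not reported here.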

Additional observations from a re-analysis of the deposited data

How the results depend on the processing

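In AGO2 over mouse neither guide strand passed the threshold in any of 8 alternatives (edgeR or DESeq2), with log2 fold changes from -0.78 to -0.33 (adjusted p from 0.117 to 0.766) for miR-26a-5p and from -1.42 to -0.90 (adjusted p from 0.0577 to 0.430) for miR-26b-5p. In bovine over mouse both kept their direction in 10 of 10 alternatives and their call in 7 of 10. The calls were lost without the filter on low counts, at 0.79 for miR-26a-5p (adjusted p = 0.0526) and 0.89 for miR-26b-5p (adjusted p = 0.0559), where rare miRNA enter the fit. They were also lost without either bovine library and kept without either mouse library. With 1 library left in a group, the spread comes from the other group alone. Leaving out each library in turn gave 1.00 to 1.37 for miR-26a-5p and 1.03 to 1.62 for miR-26b-5p. The number of miRNA called in bovine over mouse was 124 without the filter and 48 to 108 with a library left out (48 without bovine sample 1 and 49 without bovine sample 2). In AGO2 over mouse it was 52 to 85, the 52 without mouse sample 1. The log2 ratio of miR-26a-5p to miR-26b-5p in bovine minus mouse turned from -0.13 to 0.035 without mouse sample 1, with a range of -0.29 to 0.035, and in AGO2 minus mouse it ranged from 0.35 to 0.67. In the recomputed levels of single miRNA, 4 values moved by more than 1 SD, all with TMM-scaled CPM of the bovine and mouse libraries. Beyond what follows from fewer libraries or other genes tested, the cause was not tested. No paired analysis was possible because the labels give the libraries no shared numbers; over the 299 miRNA tested, the log2 gap between samples 1 and 2 in mouse correlated with that in AGO2 at r = 0.28, and 186 had the same sign. The 3p arms, at 0 to 20 counts per library, were too shallow for a test.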
